A study of Mus musculus with 6 samples.

Results

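Zp1, Rasal3, Agbl2 and Lat2 are 4 low-count mouse genes that had few or no reads in 1 of the 2 groups of libraries compared. They were taken by name from a table of 43629 genes, because earlier work on these counts had shown Zp1 and Rasal3 near absent from the libraries labelled shIGF2BP1, and Agbl2 and Lat2 near absent from the libraries labelled shNT. Their counts are therefore the values that chose them, and are given as a description with no test. The counts of the genes next to them, and of related genes, did not enter the choice.

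The cells were M1, a mouse neuroblastoma line, grown with doxycycline at 4 to 6 µg/ml for 6 days to switch on a short hairpin RNA. In 3 libraries, labelled shIGF2BP1 with the genotype IGF2BP1 knockdown, the hairpin was against Igf2bp1, an RNA-binding protein. In 3 libraries, labelled shNT with the genotype WT, it was non-targeting, and both groups received doxycycline. The labels name 1 hairpin against Igf2bp1 and do not say whether replicates came from separate cultures, so the spread between libraries may be technical, and an effect of the hairpin cannot be told apart from another difference between the cells of the groups.

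Igf2bp1 had 67, 35 and 311 counts in the libraries labelled shIGF2BP1, against 37, 175 and 201 in shNT. These summed to 413 in each group, so no fall of the targeted transcript was seen. Every direction here is between libraries as labelled. Totals ran from 25119655 to 35373076 counts per library, and 13445 genes passed the filter on low counts and were tested. Of 10 sympathetic markers, 4 had 0 counts in all 6 libraries, Th and Dbh among them, while Hand2 had 8487 to 15219 counts. Leukocyte markers summed to 0.511 to 1.45 CPM (counts per 1000000 of the normalised library size) in the libraries labelled shIGF2BP1 and to 0.708 to 0.881 CPM in shNT. Of 12, 4 were at 0, Laptm5, Tyrobp and Cd3e among them. Lyz2 was read in every library, with 28, 7 and 11 counts in shIGF2BP1, against 14, 19 and 18 in shNT. Csf1r had 3, 2 and 19 counts in shIGF2BP1, against 0, 4 and 3 in shNT. Germ cell markers summed to 0.693 to 6.58 CPM in the libraries labelled shIGF2BP1, against 1.70 to 2.56 CPM in shNT, and 4 of 9 (Dppa3, Sycp3, Figla and Zp2) were at 0. Endothelial markers summed to 31.0 to 73.6 CPM in the libraries labelled shIGF2BP1 and 37.0 to 53.8 CPM in shNT. Most of that sum was Pecam1, at 52.0 ± 22.3 CPM in shIGF2BP1 and 37.4 ± 9.50 CPM in shNT, while Kdr averaged 1.55 ± 0.846 CPM in shIGF2BP1 and 6.03 ± 3.81 CPM in shNT, and Cdh5, Tie1 and Emcn had 2 counts or fewer in all. Fibroblast markers summed to 252 to 515 CPM in shIGF2BP1 and 306 to 424 CPM in shNT. Most of it was Col1a1, at 321 ± 149 CPM in shIGF2BP1 and 319 ± 61.9 CPM in shNT. Pdgfra and Dcn had group means of 9.22 to 21.3 CPM, Col1a2 had 0 to 9 counts per library, and Lum had 0. Schwann cell markers summed to 6.13 to 13.1 CPM in shIGF2BP1 and 11.7 to 12.7 CPM in shNT. Most of it was Erbb3, at 6.89 ± 1.67 CPM in shIGF2BP1 and 9.82 ± 0.337 CPM in shNT, and Sox10 and S100b had 0 counts. The highest germ cell sum came with Ddx4, an RNA helicase of germ cells, which had 11, 194 and 10 counts in shIGF2BP1 replicates 1 to 3, against 37, 44 and 34 in shNT.

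All 4 genes are best known from cell types other than sympathetic neurons. Zp1 encodes a glycoprotein of the zona pellucida, the coat that growing oocytes lay down around themselves, where it cross-links filaments built of the Zp2 and Zp3 proteins. Rasal3 encodes a Ras GTPase-activating protein, found mainly in blood cells, that speeds the return of Ras to its inactive form. Agbl2 encodes a cytosolic carboxypeptidase, also called CCP2, that trims glutamate side chains from the tails of tubulin and is known from cilia and sperm. Lat2, also called NTAL or LAB, encodes a membrane adaptor of B cells, mast cells and other leukocytes that is phosphorylated after antigen or Fc receptors are engaged and then binds Grb2.

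The genes lie on 4 chromosomes, given here in GRCm38 from the GENCODE annotation. Zp1 (ENSMUSG00000024734) spans 10914287 to 10920632 on the minus strand of chromosome 19, with 1981 exonic bases. Rasal3 (ENSMUSG00000052142) spans 32390659 to 32403583 on the minus strand of chromosome 17, with 4897 exonic bases. Agbl2 (ENSMUSG00000040812) spans 90782727 to 90834437 on the plus strand of chromosome 2, with 6650 exonic bases. Lat2 (ENSMUSG00000040751) spans 134600022 to 134615025 on the minus strand of chromosome 5, with 2621 exonic bases.

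Promoter windows of 300 bases, 250 before the start site and 50 after, were found in the RefSeq table of GRCm38.p6 for Rasal3, at chr17:32403533-32403832 on the minus strand, and for Agbl2, at chr2:90782477-90782776 on the plus strand. Zp1 and Lat2 were not matched there. The windows are shown because the 2 genes differed between the groups in opposite directions. Capitals mark matches to motifs chosen after the windows had been read. The GC box was searched as GGGCGG, the E-box as CACGTG and an ETS motif as GAGGAAG. A stretch of the X-box of ciliary genes was searched as GTTGCNA and the TATA box as TATAAA. Both strands were searched, and no matches overlapped.
Rasal3: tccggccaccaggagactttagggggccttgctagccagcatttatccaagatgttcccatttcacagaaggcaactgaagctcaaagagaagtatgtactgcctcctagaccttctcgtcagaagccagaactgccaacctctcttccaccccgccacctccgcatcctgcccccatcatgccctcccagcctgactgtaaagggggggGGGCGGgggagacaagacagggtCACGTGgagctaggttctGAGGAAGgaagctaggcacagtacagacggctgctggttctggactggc
Agbl2: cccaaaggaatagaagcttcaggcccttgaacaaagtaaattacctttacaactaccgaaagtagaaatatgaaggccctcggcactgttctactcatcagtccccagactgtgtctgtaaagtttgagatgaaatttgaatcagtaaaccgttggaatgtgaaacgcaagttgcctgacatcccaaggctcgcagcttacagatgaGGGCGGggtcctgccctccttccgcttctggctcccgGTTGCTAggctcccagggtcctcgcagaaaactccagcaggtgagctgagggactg
The Rasal3 window held GGGCGG beginning 40 bases before the start site, CACGTG 17 bases before it and GAGGAAG at position 2 after it. The Agbl2 window held GGGCGG 43 bases before the start site and GTTGCTA 6 bases before it. Of 32851 windows in the table, 35.7% held the GC box, 7.15% the E-box, 13.6% the ETS motif, 10.4% the X-box stretch and 13.6% the TATA box. CG dinucleotides numbered 7 in the Rasal3 window and 9 in the Agbl2 window, against a median of 7 over all windows. A match is a stretch of letters and does not show that a factor binds.

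Zp1 was the gene with the most reads of the 4. It had 1 count in each library labelled shIGF2BP1, against 260, 132 and 64 counts in shNT replicates 1 to 3. In CPM, its level was 0.0343 ± 0.00523 in the libraries labelled shIGF2BP1 and 4.86 ± 3.52 in shNT (SD, n = 3 each). In bulk RNA such as this, fewer cells with the transcript and less of it per cell cannot be told apart. The groups did not overlap, and the 3 shNT libraries themselves differed 4.53-fold, with 95% Poisson counting intervals that did not overlap (7.73 to 9.89, 3.24 to 4.60 and 1.49 to 2.47 CPM in replicates 1 to 3). Pooled normalised counts were 140-fold lower in the libraries labelled shIGF2BP1 (95% exact counting interval 47.5 to 679), and 86.5-fold lower without shNT replicate 1. All such intervals describe counting error alone and leave out the spread between libraries. Sequenced reads lacking molecular identifiers cannot be taken as separate molecules, so the intervals may be too narrow even for counting error.

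Rasal3 had fewer reads than Zp1 in shNT and was also near absent from the other group. The libraries labelled shIGF2BP1 held 0, 1 and 1 counts, against 67, 111 and 23 in shNT. Its level was 0.0216 ± 0.0191 CPM in the libraries labelled shIGF2BP1 and 2.07 ± 1.29 CPM in shNT (SD, n = 3 each). The groups did not overlap, and shNT replicate 3 was lowest for both genes, while the highest was replicate 1 for Zp1 and replicate 2 for Rasal3. Pooled normalised counts were 92.3-fold lower in the libraries labelled shIGF2BP1 (95% exact counting interval 25.2 to 767).

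Agbl2 had reads in the other group. It had 14, 62 and 28 counts in the libraries labelled shIGF2BP1, against 0, 1 and 0 in shNT. Its level was 1.10 ± 0.617 CPM in the libraries labelled shIGF2BP1 and 0.00979 ± 0.0169 CPM in shNT (SD, n = 3 each), with no overlap. Pooled normalised counts were 113-fold higher in the libraries labelled shIGF2BP1, but with a single shNT count the 95% exact counting interval ran from 19.9 to 4516. Without shNT replicate 2, which held that count, shNT was at 0 and the ratio was at least 24.5-fold higher, taken against a floor of 3 counts over the group. Without shNT replicate 3 it was 74.6-fold. The most Agbl2 counts were in shIGF2BP1 replicate 2, which also held the most Ddx4 counts, and without it the ratio was 75.8-fold.

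Lat2 differed from the other 3 genes in that each library of its low group held at least 3 counts. It had 49, 96 and 41 counts in the libraries labelled shIGF2BP1, against 4, 3 and 8 in shNT. Its level was 2.03 ± 0.630 CPM in the libraries labelled shIGF2BP1 and 0.155 ± 0.0789 CPM in shNT (SD, n = 3 each), with no overlap. Pooled normalised counts were 13.5-fold higher in the libraries labelled shIGF2BP1 (95% exact counting interval 7.98 to 24.6). Its shNT libraries are thus better called low than near absent. Leaving out shNT replicate 3, the highest of them, gave 19.1-fold.

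**Figure D1:**
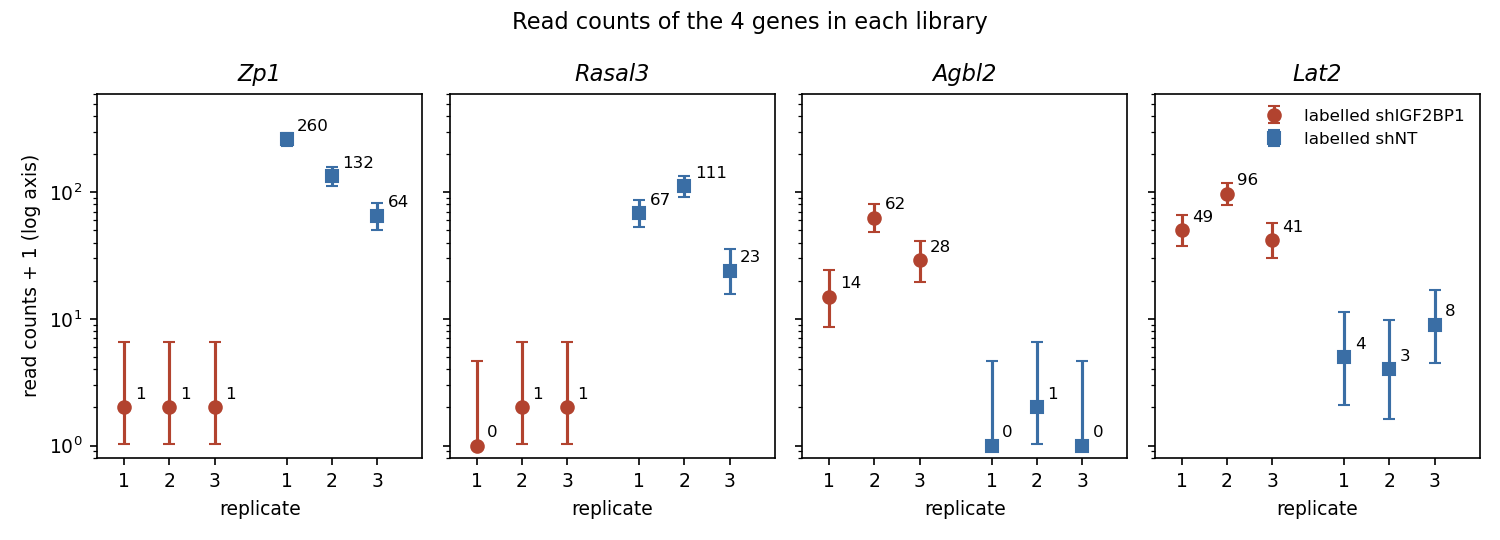
Read counts of Zp1, Rasal3, Agbl2 and Lat2 (vertical log axis, counts + 1) in replicates 1 to 3 labelled shIGF2BP1 (red circles) and shNT (blue squares), with the count written beside each point and bars for 95% Poisson intervals. Zp1 and Rasal3 sit at 0 or 1 count in the libraries labelled shIGF2BP1, Agbl2 at 0 or 1 in shNT, and Lat2 at 3 to 8 in shNT.

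Per kilobase of exon, the order of levels in the group that had the reads was Zp1, Lat2, Rasal3 and Agbl2. The mean level was 2.45 CPM per kilobase for Zp1 in shNT, 0.774 for Lat2 in shIGF2BP1, 0.423 for Rasal3 in shNT and 0.166 for Agbl2 in shIGF2BP1. These are low levels. On the CPM scale, without length, 22.2% of genes tested had a lower shNT mean than Zp1 and 15.6% a lower one than Rasal3, and 10.2% had a lower mean in shIGF2BP1 than Agbl2 and 15.3% a lower one than Lat2. Among the 13445 genes, ordered by edgeR's fitted log2 fold change, Zp1 and Rasal3 had the 2 most negative values, and Agbl2 and Lat2 stood at ranks 2 and 5 from the positive end. Odf4, a sperm tail protein, had the most positive value, with 14, 86 and 9 counts in the libraries labelled shIGF2BP1 and 0 in each shNT library.

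Non-overlap of the groups was seen in 4 of 4, against 11.6% of all genes tested. For Zp1 and Rasal3 the libraries labelled shIGF2BP1 all lay below those of shNT, as for 5.59% of all genes, and for Agbl2 and Lat2 they all lay above, as for 6.06%. The genes were chosen from this contrast, so nothing is read from these counts.

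**Figure D2:**
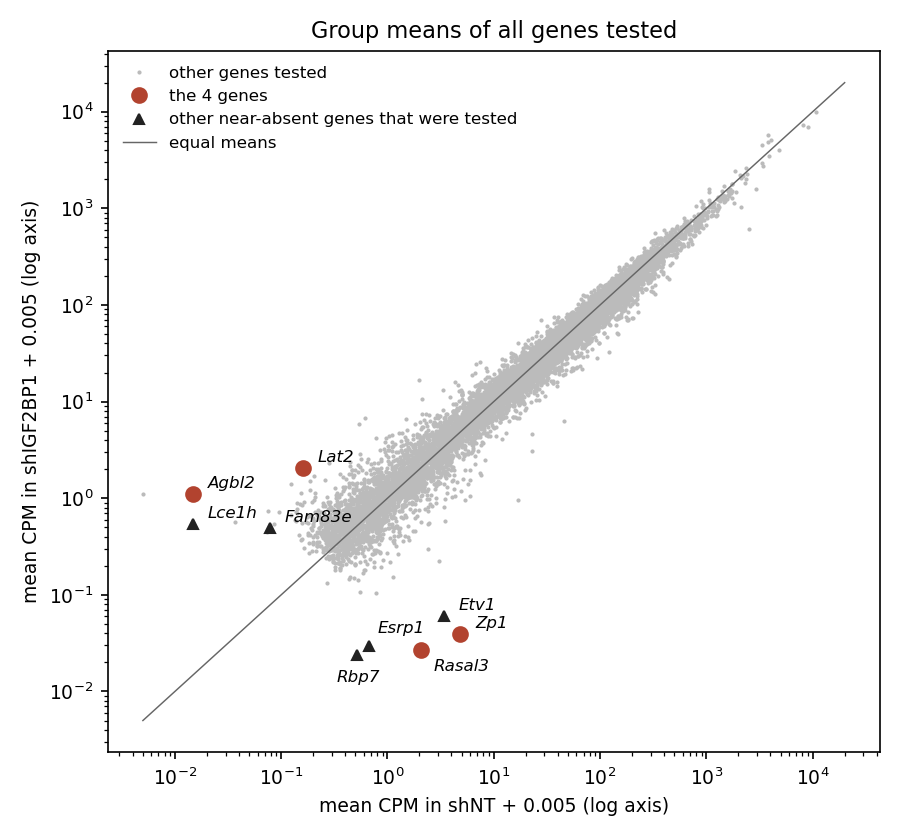
Mean CPM + 0.005 of each of 13445 genes tested, in the libraries labelled shIGF2BP1 (vertical log axis) against those labelled shNT (horizontal log axis), with the 4 genes as red circles, other genes near absent from 1 group as black triangles, and a line of equal means. Zp1 and Rasal3 lie below the line and Agbl2 and Lat2 above it, all at under 5 CPM.

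None of the neighbouring genes with enough counts to be tested showed a difference of like size. For each gene, the 5 nearest protein-coding genes on either side were taken by position, with any gene that overlapped it, 42 in all. Of these, 9 had 0 counts in every library and 24 had enough counts to be tested. The edgeR quasi-likelihood test, fitted over all genes with a threshold of 0.05 on the adjusted p, called 0 of the 24, against 0.0223% of all genes (3). The smallest adjusted p was 0.524. DESeq2 called 0, against 0.61% of all genes (82). At an unadjusted p under 0.05 there were 2, Tmem132a among them, against 7.16% of all genes. Log2 fold changes of the 24 ran from -0.76 to 0.40 with a median of 0.03, against a median of -0.01 for all genes tested. Of the 5 tested neighbours of Zp1, 4 had log2 fold changes below 0, with a median of -0.30. Around Rasal3 and Lat2, 3 were above 0 and 3 below it in each case, and around Agbl2 all 7 were above. The groups did not overlap for 2 of the 24, Tmem132a and Gtf2i, a general transcription factor near Lat2, against 11.6% of all genes.

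Around Zp1, the nearest gene was Prpf19, a splicing factor and ubiquitin ligase, which lies on the opposite strand with its 3′ end 4.73 kb from that of Zp1. It had 7933, 9275 and 9469 counts in the libraries labelled shIGF2BP1, against 8825, 9113 and 9588 in shNT. Its log2 fold change was 0.09 ± 0.20 (SE; edgeR adjusted p = 0.954). On the other side, Ptgdr2, a prostaglandin D2 receptor 16.5 kb away, had 0 or 1 counts in the libraries labelled shIGF2BP1 and 4, 0 and 0 in shNT. The next gene, Ccdc86, a nucleolar protein, averaged 42.1 ± 1.20 CPM in the libraries labelled shIGF2BP1 and 44.4 ± 19.5 CPM in shNT (SD, n = 3 each). Its log2 fold change was -0.08 ± 0.32 (SE). The membrane proteins Tmem109 and Tmem132a had log2 fold changes of -0.30 ± 0.21 and -0.72 ± 0.22 (SE; edgeR adjusted p = 0.820 and 0.524). For Tmem132a the libraries labelled shIGF2BP1, at 313 ± 41.2 CPM, all lay below those of shNT, at 517 ± 33.8 CPM. Farther out, Ms4a10, Ms4a15 and Ms4a18 had 0 counts in all 6 libraries.

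Around Rasal3, the start of Wiz, a zinc finger protein that acts with the histone methyltransferases G9a and GLP, lies 1.22 kb beyond the 3′ end of Rasal3 on the same strand. Wiz had 2548, 5229 and 3082 counts in the libraries labelled shIGF2BP1, against 3425, 6975 and 5084 in shNT. The groups overlapped, with a log2 fold change of -0.40 ± 0.25 (SE; edgeR adjusted p = 0.794). Pglyrp2, an amidase that cuts bacterial peptidoglycan and the nearest gene upstream at 8.88 kb, had 0 counts in each library labelled shIGF2BP1 and 1, 0 and 1 in shNT. The kinase anchoring proteins Akap8l and Akap8 had log2 fold changes of 0.18 ± 0.24 and 0.22 ± 0.20 (SE).

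Around Agbl2, Fnbp4, a formin-binding protein, ends 1.71 kb upstream of the Agbl2 start on the same strand. It had 3911, 7622 and 3877 counts in the libraries labelled shIGF2BP1, against 3875, 7241 and 4022 in shNT. In both groups replicate 2 held the most Fnbp4 counts, and the log2 fold change was 0.12 ± 0.26 (SE; edgeR adjusted p = 0.952). Downstream, Mtch2, a mitochondrial outer membrane protein 12.7 kb away, averaged 161 ± 14.1 CPM in the libraries labelled shIGF2BP1 and 153 ± 8.09 CPM in shNT (SD, n = 3 each). Its log2 fold change was 0.07 ± 0.18. Gm13772, a processed pseudogene on the opposite strand within an Agbl2 intron, had 2, 4 and 6 counts in the libraries labelled shIGF2BP1 and 3, 0 and 4 in shNT. All 7 tested neighbours of Agbl2 had log2 fold changes of 0.00 to 0.40, and 0 were called by edgeR or DESeq2.

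Lat2 is the gene of the 4 with an exon overlap. It overlaps Rfc2, a subunit of the clamp loader of DNA replication on the opposite strand, by 1784 bases at their 3′ ends, of which 952 are exonic in both. Rfc2 had 2062, 1583 and 2108 counts in the libraries labelled shIGF2BP1, against 1670, 2384 and 1658 in shNT, with a log2 fold change of 0.18 ± 0.25 (SE; edgeR adjusted p = 0.919). The library kit keeps the strand, but none of the sources used here gives the strand setting of the counting, and the assignment of reads in that overlap is uncertain. Rfc2 was lowest and Lat2 highest in shIGF2BP1 replicate 2. Eif4h, a translation initiation factor whose 3′ end lies 4.70 kb upstream of Lat2 on the same strand, averaged 449 ± 73.1 CPM in the libraries labelled shIGF2BP1 and 441 ± 45.2 CPM in shNT (SD, n = 3 each). Limk1, a kinase of the actin regulator cofilin, had a log2 fold change of 0.18 ± 0.25, and Clip2, a microtubule-binding protein, had -0.09 ± 0.22.

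**Figure D3:**
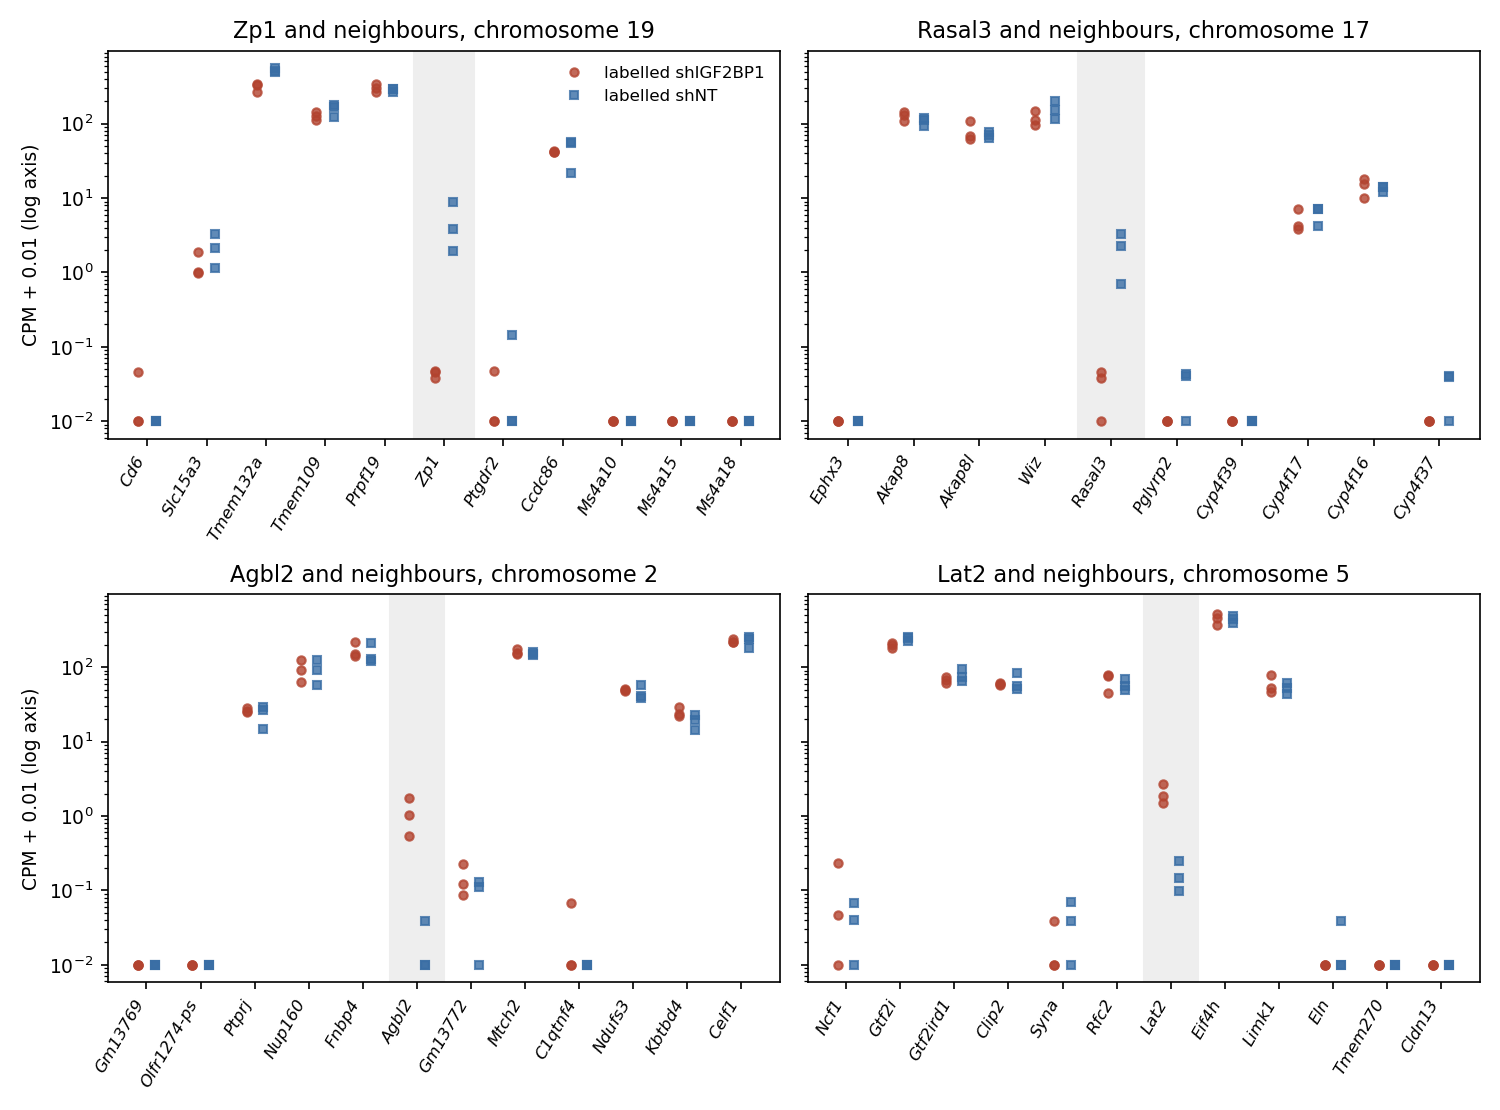
CPM + 0.01 (vertical log axis) in each library labelled shIGF2BP1 (red circles) and shNT (blue squares) for the 4 genes (grey band) and the neighbours reported here, in order of start position along each chromosome and not to scale in distance. Within the grey bands the groups do not overlap, with mean CPM at least 10-fold apart, while the neighbours with enough counts to be tested lie within log2 fold changes of -0.76 to 0.40.

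A window of 1 Mb to either side was chosen after the data had been seen. Of 26, 28, 25 and 22 genes tested within 1 Mb of Zp1, Rasal3, Agbl2 and Lat2, edgeR called 0 in each window, and 3, 2, 0 and 2 had an unadjusted p under 0.05. DESeq2 called 0 in each. Over all genes these rules called 0.0223% by edgeR, 7.16% at the unadjusted p and 0.61% by DESeq2. The median log2 fold changes were -0.13, -0.02, 0.08 and 0.00.

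Of the partners of Zp1 in the egg coat, Zp2 was not read and Zp3 was read at a few counts. Zp2, whose protein with Zp3 builds the zona filaments, had 0 counts in all 6 libraries, and Zp3 had 1, 4 and 1 counts in the libraries labelled shIGF2BP1 and 2, 1 and 5 in shNT. Figla, the transcription factor that switches on the zona genes in oocytes, also had 0 counts in all libraries. Of a list of 24 egg coat and oocyte genes, 14 had 0 counts in every library and 3 had enough to be tested, Tle6, Gdf9 and Zbed3. Tle6, a member of the subcortical complex of the oocyte that is also made elsewhere, averaged 12.0 ± 1.43 CPM in the libraries labelled shIGF2BP1 and 6.13 ± 1.16 CPM in shNT (SD, n = 3 each; edgeR adjusted p = 0.524). Gdf9, an oocyte growth factor, averaged 0.530 ± 0.309 CPM in the libraries labelled shIGF2BP1 and 0.875 ± 0.506 CPM in shNT (SD, n = 3 each; edgeR adjusted p = 0.888). Of 11 other proteins with a zona pellucida domain, 6 had 0 counts and 1 was tested, the TGF-beta co-receptor Tgfbr3, at a log2 fold change of -0.13 ± 0.23. Over both lists edgeR called 0 genes and DESeq2 called 0, against 0.0223% and 0.61% of all genes, and 1 had an unadjusted p under 0.05, against 7.16%.

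Other Ras GTPase-activating proteins were read in both groups. The list of 16 also held relatives that are not themselves Ras GTPase-activating enzymes, Spred1 to Spred3 and Iqgap1 to Iqgap3. Of the 16, 14 were tested, of which 5 had log2 fold changes above 0 and 9 below it. Among those below 0 were Spred1 (-0.28), Spred2 (-0.22), Spred3 (-0.31), Iqgap1 (-0.32) and Iqgap3 (-0.06). The median of the 14 was -0.10, and 0 were called by edgeR or DESeq2, against 0.0223% and 0.61% of all genes. At an unadjusted p under 0.05 there were 0, against 7.16%, so a count of 0 among 14 is near the background. Dab2ip and Rasal2, of the same family as Rasal3, had 959 to 1506 and 885 to 2154 counts over the 6 libraries, with log2 fold changes of 0.14 and 0.06. The member with the smallest p was Rasa2, at 36.1 ± 1.66 CPM in the libraries labelled shIGF2BP1 and 48.2 ± 11.4 CPM in shNT (SD, n = 3 each; edgeR adjusted p = 0.767). Rasal1 had 0 counts. Of 14 Ras proteins and exchange factors, 9 were tested, 4 positive and 5 negative, with a median of -0.18, and 0 were called by either tool or had an unadjusted p under 0.05. Rras, a Ras protein of the plasma membrane, had a log2 fold change of -0.38 ± 0.19 (SE; edgeR adjusted p = 0.732).

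Among the enzymes that modify tubulin tails, the carboxypeptidases Agtpbp1, Agbl3 and Agbl5 were read in every library, at 740 to 1268, 185 to 322 and 438 to 1070 counts, and Agbl1 and Agbl4 had 0. Of 23 listed enzymes 13 were tested. Their log2 fold changes were positive for 9 and negative for 4, and the median was 0.15. The edgeR test called 0, against 0.0223% of all genes, and 3 had an unadjusted p under 0.05, against 7.16%. DESeq2 called 1, Ttll6, against 0.61%. Ttll6, a ligase that lengthens the glutamate chains that carboxypeptidases trim, had 63, 177 and 33 counts in the libraries labelled shIGF2BP1, against 29, 13 and 9 in shNT (log2 fold change 2.41 ± 0.67 SE, edgeR adjusted p = 0.488). Ttll3, a tubulin glycylase, had 254, 682 and 130 counts in the libraries labelled shIGF2BP1, against 133, 114 and 124 in shNT (log2 fold change 1.55 ± 0.46 SE, edgeR adjusted p = 0.524). Both peaked in shIGF2BP1 replicate 2, the library with the most Agbl2 counts. Vash2, which with its partner Svbp removes the last tyrosine of alpha-tubulin, averaged 34.6 ± 2.42 CPM in the libraries labelled shIGF2BP1 and 23.1 ± 1.77 CPM in shNT (SD, n = 3 each; edgeR adjusted p = 0.609). Markers of multiciliated cells summed to 2.11 to 5.62 CPM in the libraries labelled shIGF2BP1 and 1.60 to 3.64 CPM in shNT, and 4 of 8 had 0 counts. Most of that sum was Ccdc39, at 3.96 ± 1.68 CPM in shIGF2BP1 and 2.71 ± 1.17 CPM in shNT (SD, n = 3 each). Ccdc39 had 122, 183 and 56 counts in shIGF2BP1 replicates 1 to 3, against 93, 123 and 46 in shNT. Foxj1, the factor that drives motile cilia, had at most 2 counts in a library. Mcidas, also on that list, had 2, 15 and 2 counts in shIGF2BP1, against 5, 1 and 5 in shNT. The part of these markers in the Agbl2 result was not tested.

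The genes that act with Lat2 in leukocytes ranged from unread to well read. Of 21 adaptors and immunoreceptor signalling genes, Fcer1a, Ms4a2, Lcp2 and Sit1 had 0 counts in all libraries, and Btk, Blnk, Lax1 and Kit had 1 count each in total. Cd79a, a signalling subunit of the B cell receptor, had 7, 8 and 2 counts in the libraries labelled shIGF2BP1, against 1, 4 and 1 in shNT. Its partner Cd79b had 0, 8 and 0 in the libraries labelled shIGF2BP1, against 4, 0 and 0 in shNT. The kinases Syk and Lyn, which act on such receptors, had 302 to 500 and 40 to 82 counts over the 6 libraries, and Grb2, the adaptor that phosphorylated Lat2 binds, had 5059 to 6188. The leukocyte marker Ptprc had 1 count in all, while Lyz2 had 7 to 28 counts per library. Of the 9 tested genes 7 had log2 fold changes above 0 and 2 below it, and the median was 0.19. The edgeR test called 0, against 0.0223% of all genes, and 2 had an unadjusted p under 0.05, against 7.16%. DESeq2 called 1, Plcg2, against 0.61%. Plcg2, a phospholipase downstream of Syk, had 1022, 1572 and 1253 counts in the libraries labelled shIGF2BP1, against 413, 880 and 752 in shNT (log2 fold change 1.05 ± 0.26 SE, edgeR adjusted p = 0.431), with no overlap in CPM. Fcer1g, the signalling subunit of Fc receptors, had 10, 20 and 10 counts in the libraries labelled shIGF2BP1, against 0, 6 and 1 in shNT (edgeR adjusted p = 0.616). Pag1, a raft adaptor of the same type as Lat2, had a log2 fold change of 0.68 ± 0.49 (SE; edgeR adjusted p = 0.831). Lat itself had 4, 18 and 2 counts in the libraries labelled shIGF2BP1 and 0, 2 and 0 in shNT, too few to be tested. The summed leukocyte markers overlapped between the groups, at 0.511 to 1.45 CPM in the libraries labelled shIGF2BP1 and 0.708 to 0.881 CPM in shNT, and their part in the Lat2 result was not tested.

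Few other genes showed the same pattern. A gene was taken as near absent from a group with at most 3 counts in each of its libraries and at least 10 in each library of the other, and 9 genes met this, 5 near absent from the libraries labelled shIGF2BP1 (0.0395% of genes with 10 or more counts in each shNT library) and 4 near absent from shNT (0.0314% of genes with 10 or more in each library labelled shIGF2BP1). Zp1, Rasal3 and Agbl2 are among them, and Lat2 is not. The others near absent from the libraries labelled shIGF2BP1 were Etv1, an ETS transcription factor, Esrp1, a splicing factor of epithelial cells, and Rbp7, a retinol-binding protein. Etv1 had 0, 2 and 3 counts there, against 163, 102 and 59 in shNT. Esrp1 had 1, 0 and 1 in the libraries labelled shIGF2BP1, against 27, 19 and 18 in shNT. Rbp7 had 0, 2 and 0 in the libraries labelled shIGF2BP1, against 19, 16 and 14 in shNT. On the opposite side were Lce1h, a cornified envelope protein, Fam83e and the predicted gene Gm14582. Lce1h had 13, 26 and 10 counts in the libraries labelled shIGF2BP1, against 0, 1 and 0 in shNT. Fam83e had 10, 24 and 11 in the libraries labelled shIGF2BP1, against 3, 3 and 1 in shNT. Gm14582 had 19, 10 and 10 in shIGF2BP1, against 1, 3 and 1 in shNT.

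Just outside those limits, by 1 count in either, were 3 genes lower in the libraries labelled shIGF2BP1 (Nos1, Ptgir and Zfyve28) and 4 higher (Odf4, Edn1, Gm13054 and 4933408B17Rik). Nos1, the neuronal nitric oxide synthase, had 1, 4 and 4 counts in the libraries labelled shIGF2BP1, against 42, 17 and 13 in shNT. Edn1, the vasoconstrictor endothelin, had 9, 10 and 25 counts in the libraries labelled shIGF2BP1, against 0 in each shNT library. The count of 9 depends on these limits. It was 5 with at most 1 count in the low group, and 3 with at least 20 in the high group (Zp1, Rasal3 and Etv1). Leaving out a library relaxes the limits, and gave 16, 13 and 25 genes without shIGF2BP1 replicate 1, 2 or 3 and 22, 18 and 18 without shNT replicate 1, 2 or 3.

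Genes with the most similar course over the 6 libraries were sought by Pearson correlation of log2 CPM with 11479 other protein-coding genes, as a description of libraries that share their depth and grouping. The 4 genes were chosen for their split between the groups, so genes with a like split rank high. Nothing is read from the size of r. Closest to Zp1 were Grk5 (r = 0.992), Gna11 (0.989) and Gabarap (0.986), which encode a receptor kinase, a G protein alpha subunit and a ubiquitin-like protein of autophagosomes. Grk5 averaged 17.7 ± 0.200 CPM in the libraries labelled shIGF2BP1 and 28.9 ± 4.02 CPM in shNT (SD, n = 3 each). Closest to Rasal3 were Gna11 (0.986), Acss2 (0.982) and Colgalt1 (0.980), where Acss2 is an acetyl-CoA synthetase and Colgalt1 a collagen galactosyltransferase. Closest to Agbl2 were Exosc10 (0.995), Lce1h (0.979) and Eef2k (0.977), where Exosc10 is an RNA exosome nuclease and Eef2k a kinase of elongation factor 2. Closest to Lat2 were Slc22a4 (0.988), Pin4 (0.985) and Ctla2a (0.984), a carnitine-type transporter, a prolyl isomerase and a protease inhibitor. Exosc10 averaged 169 ± 10.1 CPM in the libraries labelled shIGF2BP1 and 133 ± 4.53 CPM in shNT. Slc22a4 averaged 4.23 ± 0.410 CPM in the libraries labelled shIGF2BP1 and 2.38 ± 0.159 CPM in shNT.

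**Figure D4:**
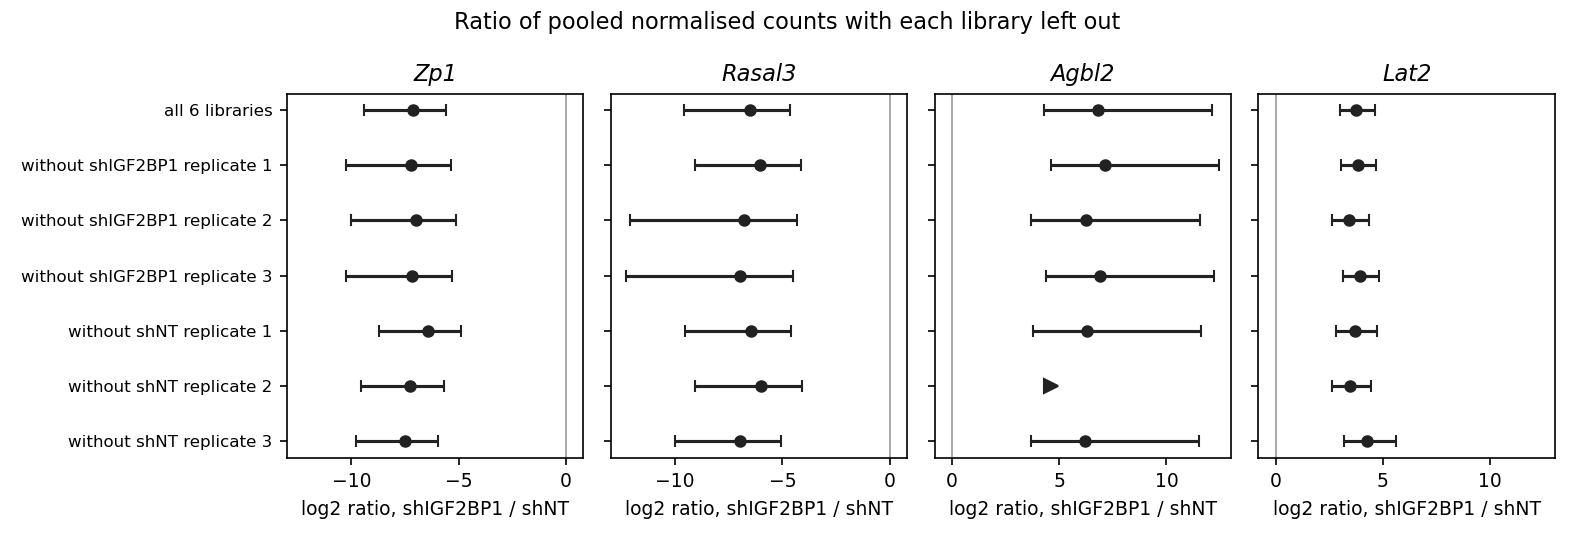
Log2 ratio of pooled normalised counts, libraries labelled shIGF2BP1 over those labelled shNT (horizontal axis), for each gene with all 6 libraries and with each library left out, with 95% exact counting intervals as bars. The triangle for Agbl2 is a lower bound of 4.61, where both remaining shNT libraries held 0 counts, and no value crosses 0. The genes were chosen from this contrast, so nothing is read from the side of 0 on which they lie.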

How the data were processed

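The authors deposited raw read counts per gene, not normalised, 1 column per library. Per the labels' protocols, poly-A RNA was taken from 200 ng of total RNA, made into stranded mRNA libraries and sequenced as paired reads of 53 cycles, and per the submitters' processing notes bcl2fastq, HISAT2 2.1.0, HTSeq and GRCm38 were used. No source used here gives the annotation release or the strand setting. Columns were joined to samples by library names in the labels. The 92 spike-in rows held 0 counts and were left out, and GENCODE M21 gave 42548 of 43629 gene IDs a symbol (0.111% of counts lay in the others).

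TMM factors and the quasi-likelihood F test came from edgeR 4.0.16 (R 4.3.3), with group as the only term, over 13445 genes kept by filterByExpr (minimum count 10, minimum total 15), with Benjamini-Hochberg adjustment over all of them and a threshold of 0.05. CPM uses TMM sizes, and log2 CPM a prior count of 2. Pooled ratios have Clopper-Pearson intervals from scipy 1.17.1, and 3 counts stand for a group at 0. Alternatives were RLE factors, library size only, no filter, the replicate number as a block, DESeq2 1.42.0, each library left out, a threshold of 0.1, and other limits for near absence. The scripts were tested on simulated data.

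The 4 genes, the lists and the rules were chosen with earlier results of these data known. Named by rule were the 4 genes, Igf2bp1, the neighbours, up to 4 tested members of each list with the smallest p, near-absent genes, and the 3 most alike genes of each. Odf4, Edn1, Nos1 and list members outside that rule were named after their values were seen. Some genes that the rule would name are not reported here. No pair of libraries agreed within sampling noise (chi-square per gene 44.9 to 237).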

Additional observations from a re-analysis of the deposited data

How the results depend on the processing

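The 4 genes were chosen for their split between the groups, so nothing is read from a kept direction. The log2 ratios of the 4 genes kept their direction under all 10 alternatives each. With libraries left out they ran from -7.51 to -6.43 for Zp1, -7.00 to -5.99 for Rasal3, 4.61 to 7.12 for Agbl2 and 3.44 to 4.25 for Lat2, and edgeR's fitted log2 fold changes with the replicate block were -6.87, -6.25, 6.36 and 3.67. No neighbour was called under any of 12 alternatives, with 24 tested, or 33 with no filter. A count of 0 among so few is near the background. Members of the related lists called numbered 3 of 78 with no filter (Plcg2, Ttll3 and Ttll6), against 138 of 21088 genes. With DESeq2 they numbered 2 of 49 (Plcg2 and Ttll6), against 0.61% of all genes, and otherwise 0, also with each library left out. Genes called over the whole table numbered 3, against 138 with no filter, 82 with DESeq2, 18 with the replicate block, 11 at a threshold of 0.1 and 1 to 5 with a library left out. The cause of these shifts was not tested. Near-absent genes numbered 9, and 8 after TMM scaling, where Etv1, Fam83e and Gm14582 left and Gm13054 and Odf4 entered. There were 5 with at most 1 count, 3 with at least 20, and 13 to 25 with a library left out. Deviations from group means correlated at 0.19, -0.09 and 0.28 between libraries with equal numbers, so the numbers were not taken as pairs. Fewer than 4 counts per library limit the low side of Zp1, Rasal3 and Agbl2, and their counting intervals are wide.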
